A study of Arabidopsis thaliana with 8 samples.

Results

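The 10 genes described here belong to the *GH3* family of *Arabidopsis thaliana*, and encode acyl acid amido synthetases, enzymes that join an amino acid to a small hormone acid. They were taken by locus identifier from the 33602 genes of the deposited count tables. The set holds *GH3.1*, *GH3.2* (also named *BRU6*), *GH3.3*, *GH3.4*, *GH3.5*, *GH3.6*, *GH3.9*, *GH3.10*, *GH3.17* and *JAR1*, and each was followed in all 8 libraries. The identifiers alone choose the genes, but the family was picked with results from these libraries already known. Every difference below is therefore a description of the family, and each adjusted p only records how the gene stood in a fit over all genes.

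The libraries are RNA-seq of whole seedlings, 6 days old, raised at 23°C in short days with 8 h of light and 16 h of dark. The 4 groups were *pwr-2* shifted to 27°C for 2 h, *pwr-2* kept at 23°C, Col-0 shifted to 27°C for 2 h, and Col-0 kept at 23°C, with 2 biological replicates of pooled seedlings in each. *pwr-2* is a T-DNA insertion allele of *POWERDRESS* (*PWR*) in the Col-0 background, and Col-0 is the wild type. PWR is a SANT-domain protein that works with the histone deacetylase HDA9, and the comparisons ask how its loss changes transcript levels at either temperature and after the shift.

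Auxin is kept within limits partly by conjugation. GH3 enzymes of the auxin-acting class join indole-3-acetic acid, the main natural auxin, to amino acids, and most of these conjugates are stored or degraded. Several *GH3* genes are themselves induced by auxin within minutes to hours, through auxin response factors that bind TGTCTC and related letters in promoters, so that they form a feedback on the hormone. JAR1 works the other way on another hormone. It makes jasmonoyl-isoleucine, the active jasmonate that is bound by the COI1 receptor.

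The promoters of *GH3.1*, *GH3.2*, *GH3.3*, *GH3.5*, *GH3.6* and *JAR1* are shown because the first 5 genes had the higher levels in *pwr-2* at 27°C described below, and *JAR1* is the family member with the highest mean level. Each is the 250 bases before the annotated gene start in RefSeq on TAIR10.1, read 5′ to 3′ on the strand of the gene, and ends at the base before the start. The windows lie on minus strands at chr2:6453798-6454047 (*GH3.1*), chr2:9866563-9866812 (*GH3.3*) and chr5:22133689-22133938 (*GH3.6*). Those on plus strands lie at chr4:17579368-17579617 (*GH3.2*), chr4:13653329-13653578 (*GH3.5*) and chr2:19033336-19033585 (*JAR1*). Capitals mark TGTCTC, the letters of the canonical auxin response element, and CACGTG, the G-box bound by bHLH and bZIP factors.
GH3.1: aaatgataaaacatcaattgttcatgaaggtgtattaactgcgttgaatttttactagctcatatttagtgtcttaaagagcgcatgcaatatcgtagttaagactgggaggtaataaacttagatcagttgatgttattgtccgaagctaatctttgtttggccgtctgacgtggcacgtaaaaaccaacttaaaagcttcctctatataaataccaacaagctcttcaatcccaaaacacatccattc
GH3.2: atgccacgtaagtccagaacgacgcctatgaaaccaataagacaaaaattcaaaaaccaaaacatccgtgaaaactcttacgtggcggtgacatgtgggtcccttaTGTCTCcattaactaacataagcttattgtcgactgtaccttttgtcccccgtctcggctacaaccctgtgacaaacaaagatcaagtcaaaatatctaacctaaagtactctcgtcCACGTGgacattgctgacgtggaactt
GH3.3: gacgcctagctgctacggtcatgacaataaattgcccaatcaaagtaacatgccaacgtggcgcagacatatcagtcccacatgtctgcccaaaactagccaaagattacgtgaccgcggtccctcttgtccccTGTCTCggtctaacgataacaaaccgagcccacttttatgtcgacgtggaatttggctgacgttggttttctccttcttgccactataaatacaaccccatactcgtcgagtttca
GH3.5: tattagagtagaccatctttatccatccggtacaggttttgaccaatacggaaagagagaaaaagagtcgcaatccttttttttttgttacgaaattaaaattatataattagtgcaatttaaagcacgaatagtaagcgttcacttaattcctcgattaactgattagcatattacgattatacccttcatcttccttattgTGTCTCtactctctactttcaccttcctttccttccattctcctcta
GH3.6: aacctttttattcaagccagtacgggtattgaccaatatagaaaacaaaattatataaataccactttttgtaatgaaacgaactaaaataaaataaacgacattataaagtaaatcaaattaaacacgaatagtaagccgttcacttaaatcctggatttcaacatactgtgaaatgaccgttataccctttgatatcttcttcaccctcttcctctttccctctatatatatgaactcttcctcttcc
JAR1: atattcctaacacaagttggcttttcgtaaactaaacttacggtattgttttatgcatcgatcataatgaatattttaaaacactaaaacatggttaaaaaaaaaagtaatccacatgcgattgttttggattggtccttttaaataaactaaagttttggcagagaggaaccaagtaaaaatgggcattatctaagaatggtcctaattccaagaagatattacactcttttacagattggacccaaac

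Both strands were searched for the auxin response element, for its variant spelled TGTCGG, and for the G-box. The auxin response element began 144 bases before the start of *GH3.2*, 116 bases before *GH3.3* and 47 bases before *GH3.5*, in each case on the strand of the gene. *GH3.2* also held the G-box 27 bases before its start, and no match overlapped another. The other 7 members held none of these 3 words within 250 bases. Among 27443 promoters of the same length 10.9% held the auxin response element, 4.16% its variant and 6.49% the G-box. Over 1000 bases *GH3.1*, *GH3.4* and *GH3.9* also held the auxin response element, a word present in 39.6% of windows of that length. *GH3.6*, *GH3.10*, *GH3.17* and *JAR1* held none of the words in 1000 bases. A match is a description of letters, and binding was not measured.

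**Figure D1:**
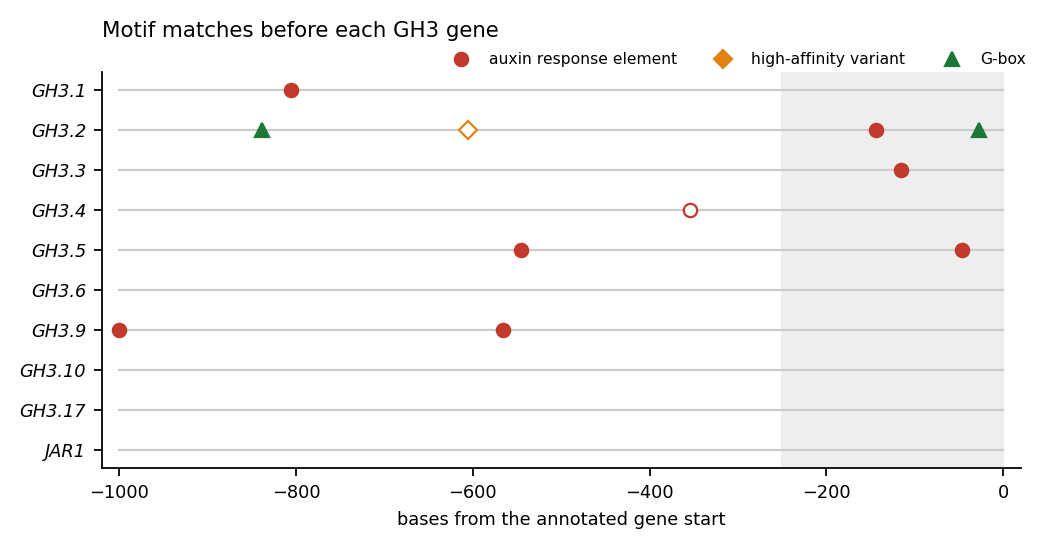
Matches to the auxin response element (red circles), its high-affinity variant (orange diamonds) and the G-box (green triangles) in the 1000 bases before each of the 10 *GH3* genes. The horizontal axis gives bases from the annotated gene start. Filled symbols lie on the strand of the gene and open ones on the other strand, and the shaded band is the 250 bases searched first, where only *GH3.2*, *GH3.3* and *GH3.5* have a match.

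The family lies on 4 chromosomes, and its gene structures differ. *GH3.1* to *GH3.6* each had 1 annotated transcript with 3 exons, while *GH3.9* had 4, *GH3.10* and *GH3.17* up to 6 and up to 4, and *JAR1* up to 6. The closest members could still be told apart by the sequencing reads. None of the stretches of 90 bases, the read length, in the exons of any of the 10 genes occurred a second time in the genome. The longest run identical between 2 members was 30 bases, between *GH3.5* and *GH3.17*. *GH3.9* and *GH3.10* each overlap a gene on the opposite strand (AT2G09955 and AT4G03410), and since the strand setting of the counting is not given in the sources used here, reads of these pairs cannot be told apart.

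Total counts ranged from 7379650 to 15733741 per library. The mutated gene checked the genotype labels: *PWR* (AT3G52250) had 11.9 and 20.1 CPM (counts scaled to 1e+06 per library) in *pwr-2* at 27°C and, in the mutant at 23°C, 15.5 and 11.3 CPM, against 43.1 and 81.7 CPM in the wild type at 27°C and 57.1 and 75.3 CPM in the wild type at 23°C. Every *pwr-2* library lay below every Col-0 library. The spread between replicates was unequal, since 12.4% of 19936 genes differed by more than 2-fold between replicates in the mutant at 27°C and 14.7% did so in the mutant at 23°C, against 20.6% in the wild type at 27°C and 30.8% in the wild type at 23°C. In whole seedlings a change in the share of cells that express a gene and a change in RNA per cell cannot be told apart. All 6 shoot markers (photosynthesis genes) were detected in all libraries, and the 8 root markers were detected except for 1 of them in 1 *pwr-2* library at 23°C.

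Levels of different genes were compared as CPM per kb of deposited gene length. Over the 8 libraries the order of mean levels was *JAR1* (38.9 ± 5.51 CPM per kb, SD over n = 8 libraries), *GH3.10* (36.1 ± 4.42), *GH3.6* (28.3 ± 8.06), *GH3.5* (17.2 ± 9.55), *GH3.17* (14.6 ± 4.68), *GH3.3* (11.2 ± 11.1), *GH3.2* (11 ± 9.18), *GH3.9* (2.65 ± 1.05), *GH3.1* (0.709 ± 0.578) and *GH3.4* (0.00431 ± 0.0122). Some neighbours in this order kept their places and others did not. *GH3.6* exceeded *GH3.5* in 8 of 8 libraries and *GH3.9* exceeded *GH3.1* in 8 of 8. *GH3.2* exceeded *GH3.9* in 7 and *GH3.10* exceeded *GH3.6* in 6. *JAR1* exceeded *GH3.10* in only 5 libraries, *GH3.5* exceeded *GH3.17* in 4, *GH3.17* exceeded *GH3.3* in 5 and *GH3.3* exceeded *GH3.2* in 3, and in all 6 of these pairs the mean difference was smaller than its SD over the libraries. In *pwr-2* at 27°C *GH3.2* held rank 4 of 10 at 23.7 ± 2.68 CPM per kb (SD, n = 2), against rank 8 in Col-0 at 27°C at 2.70 ± 0.997 CPM per kb (SD, n = 2).

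The members differed widely in how much they varied. The highest CPM over the lowest among the 8 libraries was 37.6 for *GH3.3*, 19.6 for *GH3.1*, 12.9 for *GH3.2* and 4.21 for *GH3.5*, but 1.37 for *GH3.10* and 1.53 for *JAR1*. The SD of log2 CPM (prior count 2) of *GH3.3* was larger than that of 98.4% of 19936 genes, and that of *GH3.10* larger than that of 6.49%. The corresponding shares were 95.1% for *GH3.2*, 93.3% for *GH3.1* and 9.62% for *JAR1*. *GH3.4* (AT1G59500) had 1 count in all, in replicate 2 of Col-0 at 23°C. A count of 0 in the other 7 libraries allows a level of up to 0.190 to 0.403 CPM, for counting error only, and *GH3.4* entered no test.

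**Figure D2:**
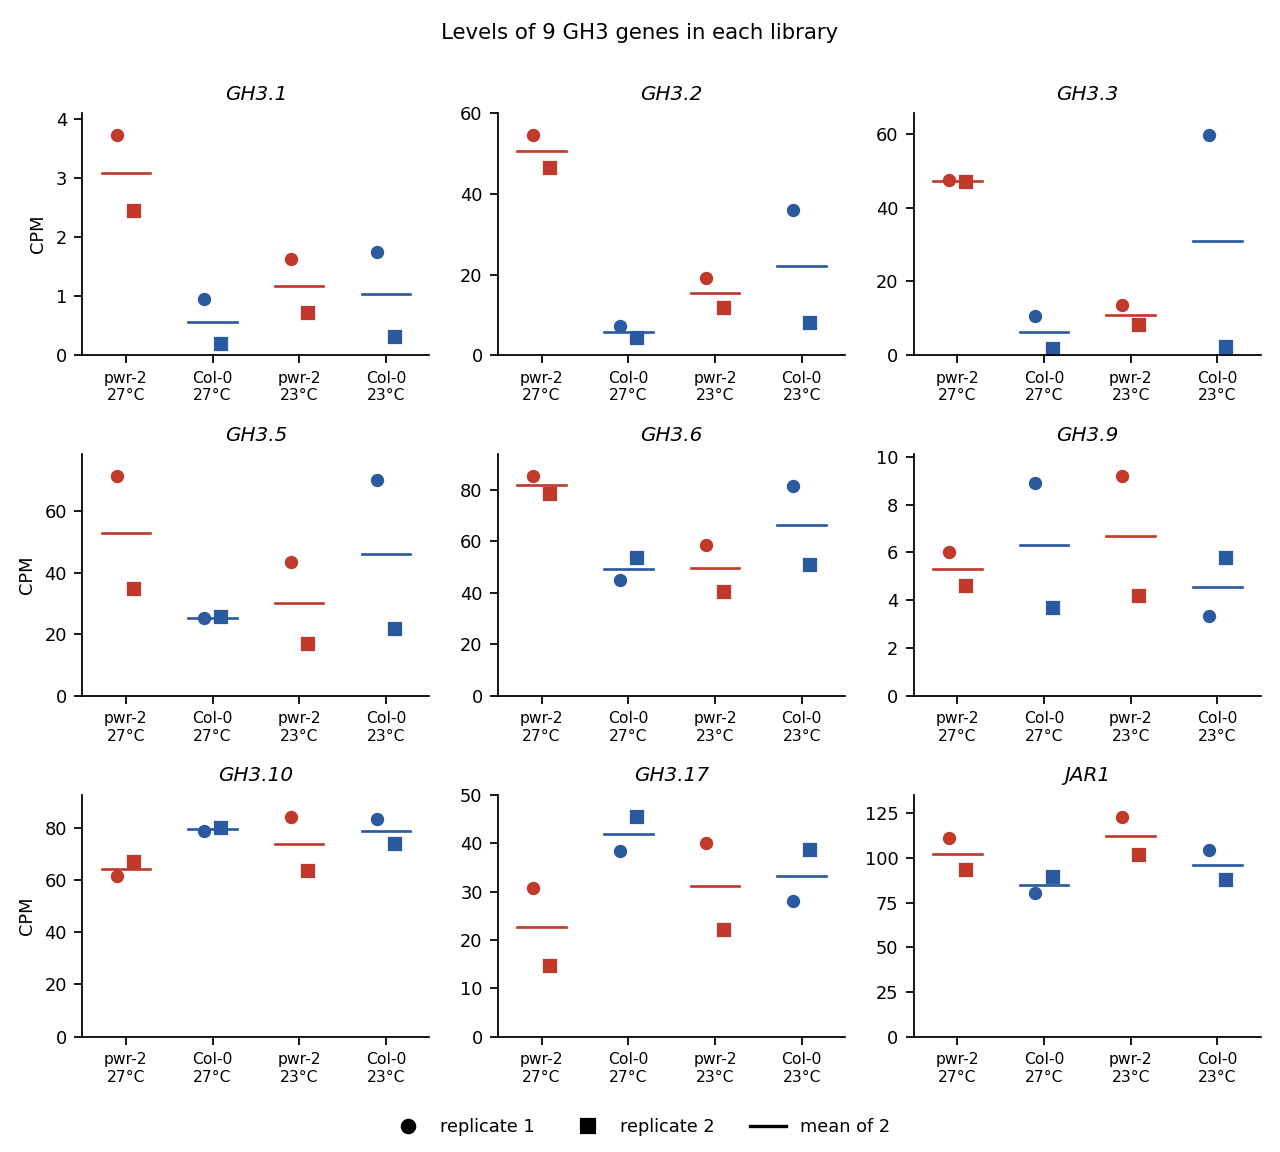
CPM (TMM library sizes) of 9 *GH3* genes in each of the 8 libraries. Each panel is a gene with its own axis starting at 0, circles are replicate 1, squares replicate 2 and lines the mean of 2, with *pwr-2* in red and Col-0 in blue. *GH3.1*, *GH3.2* and *GH3.3* are higher in both *pwr-2* libraries at 27°C than in both Col-0 libraries at 27°C, and replicate 1 of Col-0 at 23°C stands high for *GH3.2*, *GH3.3* and *GH3.5*.

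At 27°C 1 of 9 tested members, *GH3.2*, passed the threshold when *pwr-2* was compared with Col-0, and it was higher in *pwr-2*. Over all 19324 genes tested, 1.05% were past it (0.828% higher). The test was the quasi-likelihood F test of edgeR, with p-values adjusted by Benjamini-Hochberg over all genes, a threshold of 0.05 and the replicate number as a block. *GH3.1*, *GH3.2*, *GH3.3*, *GH3.5*, *GH3.6* and *JAR1* were higher in both *pwr-2* libraries than in both Col-0 libraries, and *GH3.10* and *GH3.17* lower in both, so that 8 of 9 members did not overlap between the genotypes, against 40.2% of all genes tested. At an unadjusted p under 0.05 there were 6 members, against 16.8% of all genes. The median log2 fold change of the 9 members was 0.73, and that of all genes -0.01.

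*GH3.2* (AT4G37390, chromosome 4, 17579618 to 17582022), an auxin-conjugating enzyme, had 54.6 and 46.5 CPM in *pwr-2* at 27°C, against 7.25 and 4.25 CPM in Col-0 at 27°C. Both *pwr-2* libraries were several times above both Col-0 libraries. The fitted level was 8.96-fold higher in *pwr-2* (standard error 0.297 on the log2 scale, edgeR adjusted p = 0.0315).

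*GH3.3* (AT2G23170, chromosome 2, 9863855 to 9866562), which conjugates auxin and acts with *GH3.5* and *GH3.6* in adventitious rooting, had 47.4 and 47.0 CPM in *pwr-2* at 27°C, against 10.7 and 1.58 CPM in Col-0 at 27°C. The *pwr-2* libraries were nearly level with each other while the Col-0 libraries were far apart. The fitted fold was 10.3 (log2 fold change 3.37, standard error 0.657, edgeR adjusted p = 0.0749), larger than that of *GH3.2* but with a larger error, and it did not pass the threshold.

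*GH3.1* (AT2G14960) is a weakly expressed member of the same class. It had 45 and 27 counts (3.72 and 2.44 CPM) in *pwr-2* at 27°C, against 13 and 3 counts (0.942 and 0.190 CPM) in Col-0 at 27°C. The groups did not overlap, but the Col-0 level rests on few reads (log2 fold change 2.61, standard error 0.650, edgeR adjusted p = 0.115).

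*GH3.5* (AT4G27260), which acts on auxin and also on salicylic acid, had 71.4 and 34.7 CPM in *pwr-2* at 27°C, against 25.2 and 25.5 CPM in Col-0 at 27°C. *GH3.6* (AT5G54510), known from the dwarf *dfl1-D*, had 85.4 and 78.4 CPM in *pwr-2* at 27°C, against 44.9 and 53.4 CPM in Col-0 at 27°C. For *GH3.5* replicate 2 of *pwr-2* was only a little above Col-0, while for *GH3.6* both libraries were clearly above. The log2 fold changes were 0.97 and 0.73 (standard errors 0.330 and 0.268, edgeR adjusted p = 0.212 and 0.243), so neither passed the threshold.

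*GH3.17* (AT1G28130), an auxin-conjugating enzyme with a preference for glutamate, went the other way. It had 30.8 and 14.7 CPM in *pwr-2* at 27°C, against 38.5 and 45.6 CPM in Col-0 at 27°C. Both *pwr-2* libraries were below both Col-0 libraries, replicate 2 much more so (log2 fold change -0.98, standard error 0.365, edgeR adjusted p = 0.247). Beside this, 6 of 7 tested root markers had a log2 fold change below 0 (median -1.33), while 49.1% of all genes were above 0. Past the threshold was 1 of the 7, against 1.05% of all genes tested. This was *CASP1* of the root endodermis (-1.89, standard error 0.289, edgeR adjusted p = 0.0467). The summed level of the 8 root markers was 2384 and 1776 CPM in *pwr-2*, against 2130 and 2866 CPM in Col-0. Nearly all of this sum was *PYK10*, with 2358 and 1761 CPM in *pwr-2*, against 2075 and 2799 CPM in Col-0. All 6 tested seed storage markers were below 0 as well (median -2.41), none past the threshold, and the 7 summed to 102.7 and 12.5 CPM in *pwr-2*, against 84.7 and 112.4 CPM in Col-0. The part of either list in the values of the *GH3* genes was not tested.

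The remaining 3 members moved little. *GH3.10* (AT4G03400), also named *DFL2* and known from hypocotyl growth in red light, had 61.4 and 67.0 CPM in *pwr-2* at 27°C, against 78.6 and 80.0 CPM in Col-0 at 27°C (log2 fold change -0.32, standard error 0.262). *JAR1* (AT2G46370) had 111 and 93.1 CPM in *pwr-2*, against 80.4 and 89.2 CPM in Col-0 (0.25, standard error 0.280). *GH3.9* (AT2G47750), which is known from root growth, overlapped between the genotypes with 6.04 and 4.60 CPM in *pwr-2*, against 8.92 and 3.68 CPM in Col-0 (-0.15, standard error 0.400). None of the 3 passed the threshold.

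The number of members past the threshold at 27°C was between 0 and 2 over the alternatives, with *GH3.2* lost under upper-quartile normalization (adjusted p = 0.0625) and without the replicate block (adjusted p = 0.153), and *GH3.3* gained with DESeq2 (adjusted p = 3.9e-07) and also with no filter or a stricter one of 10 counts per library. DESeq2 called 4.72% of all genes tested, against 1.05% in edgeR. Each of the 4 libraries was also left out, in fits over the remaining libraries of all groups. No gene was called even with all 8 libraries fitted together. Such fits therefore cannot show whether the call of *GH3.2* rests on a single library. In them the log2 fold change of *GH3.2* ranged from 2.68 without replicate 2 of *pwr-2* to 3.67 without replicate 1 of *pwr-2*. The log2 fold change of *GH3.3* then ranged from 2.16 without replicate 2 of *pwr-2* to 4.86 without replicate 1 of *pwr-2*.

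**Figure D3:**
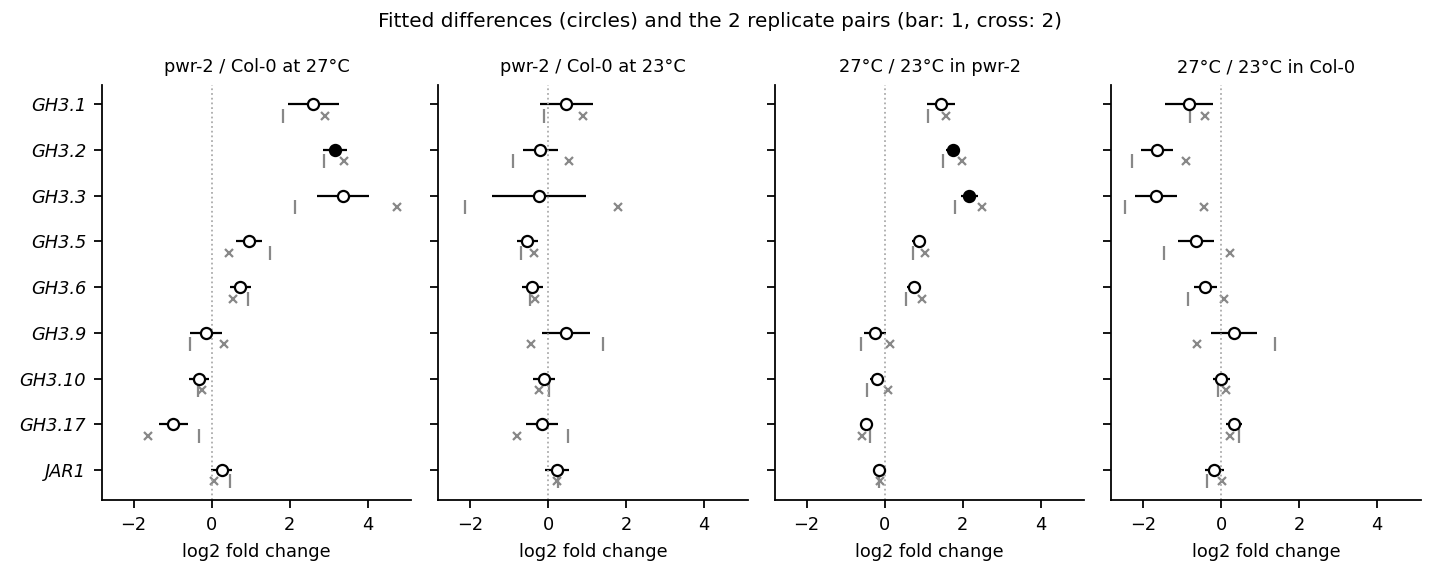
Log2 fold changes of 9 *GH3* genes in 4 comparisons, from left to right *pwr-2* over Col-0 at 27°C, *pwr-2* over Col-0 at 23°C, 27°C over 23°C in *pwr-2* and 27°C over 23°C in Col-0. Circles are fitted values with the standard error, filled where the edgeR adjusted p is under 0.05 (*GH3.2* at 27°C, and *GH3.2* and *GH3.3* in *pwr-2*), and grey marks are the differences of log2 CPM within replicate 1 (bar) and replicate 2 (cross). Between the genotypes at 23°C the replicates point in opposite directions for *GH3.1*, *GH3.2*, *GH3.3*, *GH3.9*, *GH3.10* and *GH3.17*.

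At 23°C no member passed the threshold between the genotypes in the edgeR test, as was the case for all 19170 genes tested (0%). At an unadjusted p under 0.05 there were 0 of 9 members, against 4.53% of all genes, and DESeq2 called no member and 0.271% of all genes. The log2 fold changes of the 9 members lay between -0.53 (*GH3.5*) and 0.47 (*GH3.1*), with a median of -0.15. The genotypes overlapped in every tested member, whereas they did not overlap in 27.3% of all genes. All 6 tested seed storage markers were below 0 (median -3.41), and their part was not tested.

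At 23°C the spread within Col-0 was widest in the genes that varied most over the 8 libraries. Those 8 include these Col-0 libraries, so the measures are not independent. *GH3.2* had 19.2 and 11.7 CPM in *pwr-2* at 23°C, against 36.0 and 8.10 CPM in Col-0 at 23°C. *GH3.3* had 13.5 and 8.13 CPM in *pwr-2* at 23°C, against 59.6 and 2.23 CPM in Col-0 at 23°C. In both genes the *pwr-2* libraries fell between the Col-0 libraries. Within replicate 1 *GH3.3* was lower in *pwr-2* by a log2 difference of -2.13, and within replicate 2 it was higher by 1.80.

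Col-0 at 23°C was the group with the largest gaps in the auxin-inducible genes. The level of *GH3.3* was 25.1-fold higher in replicate 1 than in replicate 2, a gap larger than that of 98.9% of genes in this group. The gap was 4.38-fold for *GH3.2*, 4.07-fold for *GH3.1* and 3.21-fold for *GH3.5*. *GH3.10* and *JAR1* differed by 1.13-fold and 1.19-fold between the same libraries. Chloroplast and mitochondrial genes took 6.77% of all counts in replicate 1 and 0.296% in replicate 2, and the summed level of the 7 seed storage markers was 535 CPM in replicate 1 and 330.2 CPM in replicate 2. In *pwr-2* at 23°C these measures were also unequal, and more so as a ratio. They were 6.49% and 0.0374% of counts and 356 and 3.06 CPM in replicates 1 and 2. The gap between these *pwr-2* replicates was 1.65-fold for *GH3.3*, 1.63-fold for *GH3.2*, 2.04-fold for *GH3.1* and 2.54-fold for *GH3.5*. The part of these measures in the gaps was not tested.

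After the shift to 27°C in *pwr-2*, *GH3.2* and *GH3.3* rose, the only 2 of 9 members past the threshold in the edgeR test, against 0.420% of 19050 genes. *GH3.2* had 54.6 and 46.5 CPM at 27°C, against 19.2 and 11.7 CPM at 23°C, and both libraries at 27°C were above both at 23°C (log2 fold change 1.75, standard error 0.179, edgeR adjusted p = 0.0451). *GH3.3* had 47.4 and 47.0 CPM at 27°C, against 13.5 and 8.13 CPM at 23°C, again without overlap (2.17, standard error 0.219, edgeR adjusted p = 0.0451). At an unadjusted p under 0.05 there were 6 members, against 18.1% of all genes, and the temperatures did not overlap for 4, against 32.4%. Without replicate 2 of *pwr-2* at 27°C the log2 fold change of *GH3.3* was 0.56, and without replicate 2 at 23°C it was 3.46, while that of *GH3.2* lay between 1.24 and 2.22 without single libraries. These fits used the other 7 libraries. With all 8 libraries in one fit no gene was called, so such fits cannot show whether a call rests on a single library. The same *pwr-2* libraries at 27°C enter this comparison and the one between genotypes, so the 2 results are not independent.

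The other auxin-inducible members lay above 0 in *pwr-2* without passing the threshold. *GH3.1* had 3.72 and 2.44 CPM at 27°C, against 1.62 and 0.716 CPM at 23°C (log2 fold change 1.45, edgeR adjusted p = 0.140). *GH3.6* had 85.4 and 78.4 CPM at 27°C, against 58.6 and 40.5 CPM at 23°C (0.75, edgeR adjusted p = 0.108). *GH3.5*, with 71.4 and 34.7 CPM at 27°C against 43.4 and 17 CPM at 23°C, overlapped between temperatures but was higher at 27°C within both replicates (0.87, edgeR adjusted p = 0.0796). *GH3.17*, *GH3.9*, *GH3.10* and *JAR1* had log2 fold changes between -0.48 and -0.14. The median of the 9 members was 0.75, and that of all genes 0.01.

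Root markers had a median log2 fold change of -1.28 in this comparison over 7 tested, all below 0, while 50.9% of all genes were above 0. Past the threshold was 1 of the 7, against 0.420% of all genes tested. This was *IRT1*, the iron transporter of the root epidermis, with libraries that overlapped between the temperatures (-3.71, standard error 0.402, edgeR adjusted p = 0.0496). Replicate 1 had 35 counts at 27°C against 380 at 23°C, and replicate 2 had 1 count against 2. The value thus rests on replicate 1. The summed level of the 8 root markers, nearly all of it *PYK10*, was 2384 and 1776 CPM at 27°C, against 2558 and 2248 CPM at 23°C. The 7 seed storage markers summed to 102.7 and 12.5 CPM at 27°C, against 356 and 3.06 CPM at 23°C, and organelle genes took 2.12% of counts or more in both libraries at 27°C, against 6.49% and 0.0374% at 23°C. The part of these in the *GH3* values was not tested. The 2 calls were lost under upper-quartile normalization (adjusted p = 0.0550 for both) and without the replicate block, where no gene at all was called. DESeq2 called *GH3.5* as well (adjusted p = 0.0419), and 3.35% of all genes.

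In Col-0 no member was past the threshold between 27°C and 23°C in edgeR or DESeq2. The edgeR test called none of 19386 genes (0%) and DESeq2 0.202%. At an unadjusted p under 0.05 there were 2 members, *GH3.2* and *GH3.3*, both with values below 0, against 2.25% of all genes below 0 at that p. *GH3.2* had 7.25 and 4.25 CPM at 27°C, against 36.0 and 8.10 CPM at 23°C, and was the only member without overlap, against 18.3% of all genes (log2 fold change -1.65, standard error 0.408, edgeR adjusted p = 0.943). *GH3.3* had 10.7 and 1.58 CPM at 27°C, against 59.6 and 2.23 CPM at 23°C (-1.68, standard error 0.538, edgeR adjusted p = 0.943). Replicate 1 of Col-0 at 23°C was also left out, in a fit over the other 7 libraries. The log2 fold change of *GH3.3* was 0.67 there and that of *GH3.2* -0.82, so the fitted sign of *GH3.3* depended on that library. Within replicate 2 of Col-0 *GH3.3* was still lower at 27°C (log2 difference -0.45). All 7 seed storage markers were below 0 in Col-0 (median -1.27), and their part was not tested.

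The difference between genotypes in the response to 27°C was itself tested as the interaction of genotype and temperature over all 8 libraries. No gene of 19936 was past the threshold in edgeR (0%), the lowest adjusted p over all genes being 0.926. At an unadjusted p under 0.05 there were 5 of 9 members, all above 0 (*GH3.1*, *GH3.2*, *GH3.3*, *GH3.5* and *GH3.6*), against 4.59% of all genes (3.55% above 0). The interaction was 3.53 on the log2 scale for *GH3.2* (standard error 0.648), 4.35 for *GH3.3* (1.52), 2.27 for *GH3.1* (0.880), 1.44 for *GH3.5* (0.575) and 1.13 for *GH3.6* (0.384), each with an edgeR adjusted p of 0.948. DESeq2 called 1 member, *GH3.2* (adjusted p = 0.00419), and 0.116% of all genes. The values for *GH3.3* ranged from 1.56 to 5.36 when single libraries were left out.

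**Figure D4:**
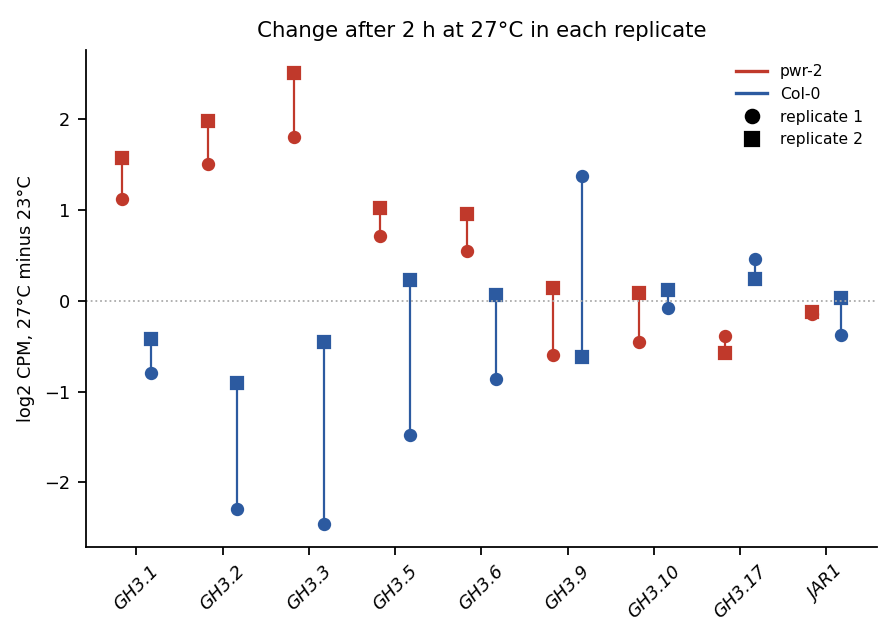
Difference of log2 CPM (prior count 2) between 27°C and 23°C within replicate 1 (circles) and replicate 2 (squares) for 9 *GH3* genes, with *pwr-2* in red and Col-0 in blue. *GH3.1*, *GH3.2* and *GH3.3* lie above 0 in both replicates of *pwr-2* and below 0 in both of Col-0, and *GH3.17* the other way round.

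Averaged over both temperatures, no member and no gene was past the threshold between *pwr-2* and Col-0 in edgeR (0%, lowest adjusted p over all genes 0.0584). At an unadjusted p under 0.05 there were 2 members, *GH3.1* (log2 fold change 1.57) and *GH3.2* (1.46), against 17.4% of all genes, and DESeq2 called *GH3.2* alone (adjusted p = 0.00348) and 5.07% of all genes. Averaged over both genotypes, no member and no gene was past the threshold between 27°C and 23°C (0%). There the 9 members lay between -0.15 and 0.37. None had an unadjusted p under 0.05 in edgeR, against 758 of 19936 genes, and DESeq2 called none of them and 0.142% of all genes.

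Summed over *GH3.1* to *GH3.6*, the auxin-inducible group reached 263 and 209 CPM in *pwr-2* at 27°C, against 89.0 and 84.8 CPM in Col-0 at 27°C. At 23°C the sum was 136 and 78.0 CPM in *pwr-2*, against 249 and 83.5 CPM in Col-0. Replicate 1 of Col-0 at 23°C was thus as high as *pwr-2* at 27°C, and the other 5 libraries were below both. The sum of *GH3.9*, *GH3.10*, *GH3.17* and *JAR1* stayed between 179 and 257 CPM in all 8 libraries. *GH3.2* and *GH3.3* made up 11.6% and 10.04% of all *GH3* CPM in replicate 1 of *pwr-2* at 27°C and 12.0% and 12.1% in replicate 2, against 2.45% and 3.63% in replicate 1 of the wild type at 27°C and 1.4% and 0.522% in replicate 2.

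**Figure D5:**
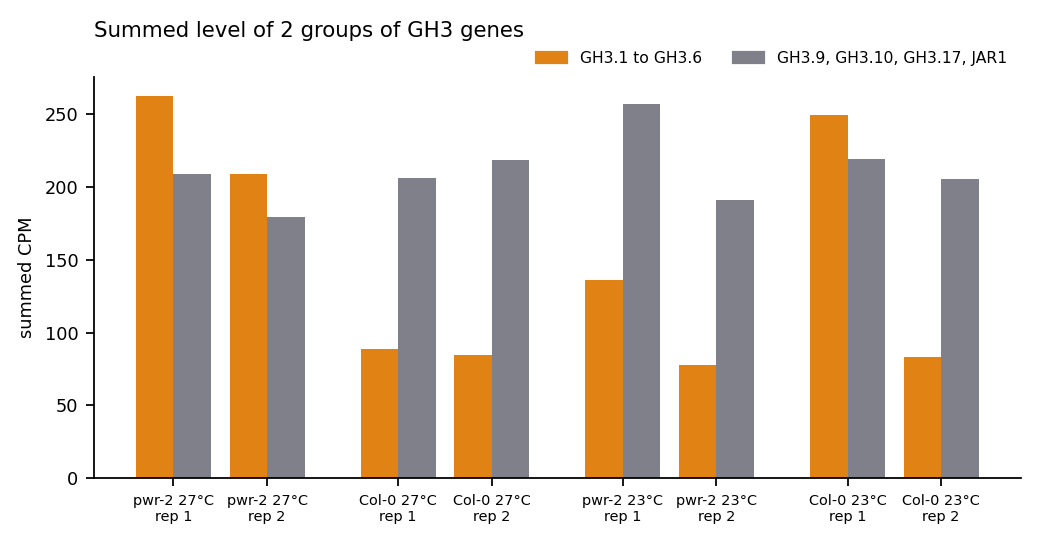
Summed CPM of *GH3.1* to *GH3.6* (orange) and of *GH3.9*, *GH3.10*, *GH3.17* and *JAR1* (grey) in each of the 8 libraries, with bars starting at 0. The orange bars are above the grey ones in both *pwr-2* libraries at 27°C and in the first Col-0 library at 23°C, and below them in the other 5 libraries.

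The genes most like the auxin-inducible members were sought by the root-mean-square distance of log2 CPM, centred over the 8 libraries, from the mean profile of *GH3.1*, *GH3.2*, *GH3.3*, *GH3.5* and *GH3.6*. Among 14744 candidate genes with a median distance of 1.06, the nearest was *ABCG1* (AT2G39350, 0.182), a transporter of the ABC-G family. It was followed by AT1G17940 (0.271), AT2G16890 (0.280), *MMP* (AT1G70170, 0.289), annotated as a matrix metalloproteinase, and AT1G59740 (0.291), annotated as *NPF4.3*. The members' own distances were 0.302 for *GH3.1*, 0.375 for *GH3.2*, 0.552 for *GH3.5*, 0.709 for *GH3.6* and 0.879 for *GH3.3*. *JAR1* (0.914), *GH3.10* (1.06), *GH3.9* (1.12) and *GH3.17* (1.34) lay farther away. The profile was the mean of the former members, so their smaller distances are in part built in.

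Of the other *GH3* genes of the genome, 9 were looked up. At 27°C 6 of them could be compared between the genotypes and 1 passed, against 1.05% of all genes tested. This was *PBS3* (*GH3.12*, AT5G13320), which joins glutamate to isochorismate on the way to salicylic acid. *PBS3* had 117 and 126 counts (9.67 and 11.4 CPM) in *pwr-2* at 27°C, against 13 and 18 counts (0.942 and 1.14 CPM) in Col-0 at 27°C, without overlap (log2 fold change 3.31, standard error 0.400, edgeR adjusted p = 0.0325). The other 5 had values on both sides of 0, and the median of the 6 was -0.02. An unadjusted p under 0.05 was seen for 3 of the 6, 2 higher and 1 lower, against 16.8% of all genes. At 23°C *PBS3* had 17 and 2 counts in *pwr-2*, against 44 and 6 counts in Col-0.

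The genes around the family in auxin and jasmonate metabolism are given for the same comparison by counts. None of 4 other auxin-inactivating genes (*DAO1* and glucosyl- and methyltransferases, median log2 fold change 0.66) was past the threshold. Nor was any of 6 amidohydrolases, some of which release auxin from conjugates (median -0.28), or of 6 auxin synthesis genes (median -0.05). An unadjusted p under 0.05 was seen for 3, 1 and 2 genes of these lists in turn, against 16.8% of all genes. Among 16 early auxin response genes (*Aux/IAA*, *SAUR* and others) 11 had values below 0 and 5 above 0, against 49.1% of all genes above 0. Their values ran from -1.97 to 1.11 with a median of -0.71. None of the 16 was past the threshold, and 5 had an unadjusted p under 0.05, all below 0, against 16.8% of all genes in either direction. Of 14 genes of jasmonate synthesis, turnover and response 13 had values above 0, against 49.1% of all genes, with a median of 1.65. Of the 14 genes 8 had an unadjusted p under 0.05, all above 0, against 16.8% of all genes in either direction. Past the threshold was 1 of the 14, against 1.05% of all genes. This was *JAZ1* (AT1G19180), a repressor of jasmonate signalling and an early target of it. *JAZ1* had 72.8 and 46.0 CPM in *pwr-2* at 27°C, against 19.9 and 7.98 CPM in Col-0 at 27°C (log2 fold change 2.18, edgeR adjusted p = 0.0377).

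Between 27°C and 23°C in *pwr-2* the jasmonate list had 14 of 14 values above 0 (median 0.91), against 50.9% of all genes. The unadjusted p was under 0.05 for 9, against 18.1%, and 1 gene was past the threshold, against 0.420%. This was *VSP2* (AT5G24770), a vegetative storage protein gene and a late jasmonate marker. *VSP2* had 184 and 101 CPM at 27°C, against 47.7 and 22.7 CPM at 23°C (log2 fold change 2.05, edgeR adjusted p = 0.0384). The level of *JAR1*, whose product makes the active jasmonate, differed little between the same libraries, at 111 and 93.1 CPM at 27°C against 123 and 102 CPM at 23°C. Among 17 early auxin response genes 11 had values below 0 and 6 above 0 (median -0.43), against 50.9% of all genes above 0. Of these 17 genes 0 were past the threshold and 5 had an unadjusted p under 0.05, against 18.1% of all genes. In Col-0 no gene of any of these lists was past the threshold between temperatures, nor between the genotypes at 23°C. In these comparisons edgeR called 0% of all genes tested (19386 and 19170), so no list could hold a call.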

How the data were processed

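The 8 RNA libraries of whole seedlings were sequenced with paired reads of 90 bp. According to the labels and the paper's methods the authors removed ribosomal RNA reads with SortMeRNA, aligned the rest to TAIR10 with TopHat2 2.1.0 and Bowtie2 2.1.0, and counted fragments with both reads aligned per gene with featureCounts 1.4.5. The strand setting and the annotation release are not given in the sources used here. The authors deposited raw counts without normalization in a table per temperature, beside gene lengths. A further table of their normalized values was not used here.

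From the deposited counts, edgeR 4.0.16 in R 4.3.3 (filterByExpr, TMM, replicate number as block, quasi-likelihood test, Benjamini-Hochberg over all genes tested, threshold 0.05) compared pairs of groups on their own 4 libraries, and the interaction and the 2 averaged contrasts on all 8. Standard errors are the fold change over the square root of the F statistic. CPM used TMM sizes over 8 libraries, and log2 CPM a prior count of 2. With 2 libraries per group the p-values rest on few degrees of freedom. Precision is set by depth as well, since 3 counts are worth 0.185 to 0.403 CPM.

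The block follows the batch term of the authors' model. As a check of the pairing, replicate differences were correlated between groups over 19936 genes, which are not independent. Pearson's r was 0.561 between temperatures in *pwr-2*, 0.652 in Col-0 and 0.260 to 0.373 between genotypes.

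All members were named. From the lists (other *GH3* genes, other auxin inactivation, amidohydrolases, early auxin response, auxin synthesis, jasmonate genes, and shoot, root and seed storage markers) genes past the threshold were named, up to 4 per list and comparison. The members and lists were chosen with earlier results of these data known. Alternatives were DESeq2 1.42.0, other normalizations and filters, nuclear genes alone, no block, a fit over all libraries and each library left out. Promoters, positions and symbols came from RefSeq on TAIR10.1 (32835 of 33602 identifiers matched), while the counts carry no coordinates. Figures were drawn with matplotlib 3.10.9.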

Additional observations from a re-analysis of the deposited data

Results flagged for a closer look

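In 4 members the change from 23°C to 27°C had 1 direction in both replicates of *pwr-2* and the opposite direction in both replicates of Col-0. *GH3.1*, *GH3.2* and *GH3.3* were higher at 27°C in *pwr-2* and lower in Col-0, with interactions of 2.27, 3.53 and 4.35 on the log2 scale. *GH3.17* was lower at 27°C in *pwr-2* and higher in Col-0, with an interaction of -0.78. The edgeR adjusted p of the interaction (quasi-likelihood test, Benjamini-Hochberg) was 0.948 for each, so none of these differences passed the correction. Over 19936 genes, 7.83% were higher at 27°C in both replicates of *pwr-2* and lower in both of Col-0, and 7.85% showed the reverse. For 3 of the 4, the sign of the fitted change in Col-0 depended on a single library. These fits used the other 7 libraries and took the replicate effect from all groups, whereas both replicate differences in Col-0 had 1 sign. When the first Col-0 library at 23°C was dropped, the log2 change in Col-0 was 0.67 for *GH3.3* and 0.04 for *GH3.1*, both of the other sign, and -0.82 for *GH3.2*, of the same sign. That of *GH3.17* was -0.11 without the same library and -0.10 when the second Col-0 library at 27°C was dropped, against 0.34 with all libraries.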

How the results depend on the processing

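The number of *GH3* genes past the threshold depended on the settings in both comparisons that gave calls. For *pwr-2* relative to Col-0 at 27°C it was 1, against 0 with upper-quartile normalization, no replicate block or all 8 libraries in one fit, and 2 with no filter, with at least 10 counts in every library or with DESeq2. Single libraries were left out in fits over the other 7 libraries that assume a lone library varies like the other groups. All 8 libraries in one fit already gave 0 calls, so these fits cannot show whether a call rests on a single library. Between 27°C and 23°C in *pwr-2* the number was 2, against 0 with upper-quartile normalization, no replicate block or all 8 libraries in one fit. No filter and DESeq2 each gave 3. DESeq2 gave 1 for the interaction and 1 for the genotype average, against 0 in edgeR, and leaving out libraries gave 0 to 1 for the interaction, the 1 being *GH3.2* without replicate 2 of Col-0 at 23°C. Of all genes at 27°C, 202 were called between genotypes, against 0 without the replicate block, 0 with upper-quartile normalization, 0 with all 8 libraries, 700 with no filter, 380 with at least 10 counts and 925 with DESeq2. In *pwr-2*, 80 were called between temperatures, against 0 without the block, 36 with upper-quartile normalization, 0 with all 8 libraries, 685 with no filter, 416 with at least 10 counts, 586 with nuclear genes alone and 637 with DESeq2. Why the counts moved was not tested. In other comparisons the block changed no call of a member, and a block within genotype, fitted for the interaction and the temperature average, gave 0 calls. It could not be fitted for the genotype average.

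No call changed sign. Between genotypes at 27°C, 8 of 9 members kept their sign under every alternative and *GH3.2* ranged from 2.68 to 3.67 with single libraries left out, *GH3.3* from 2.16 to 4.86. Between temperatures 7 of 9 kept it in *pwr-2* and 2 of 9 in Col-0, and between genotypes at 23°C 3 of 9. *GH3.1* and *GH3.4* are limited by depth, with 132 counts and 1 count in all.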
